A study of Caenorhabditis elegans with 14 samples.

Results

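The insulin-like peptide genes of Caenorhabditis elegans and the genes of its dauer signalling pathways were followed through larvae and adults of daf-19 mutants and their controls. The set holds 39 genes out of 17118 that the array measured with a probe set of their own. It was chosen by name: 23 genes of the ins family and daf-28, which together are 24 insulin-like ligands, 7 genes of the insulin receptor pathway, 7 genes of the TGF-beta dauer pathway, and the steroid hormone gene daf-9. Where a gene had several probe sets, the one with the highest mean over the 14 arrays stood for it. The 39 genes have 60 probe sets in all, 13 of the genes have more than 1, and 8 are represented by a probe set whose name ends in _s_at or _x_at, which may match more than 1 transcript. The RefSeq annotation (WBcel235) names 38 ins genes, and those without a probe set of their own are not analysed here.

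RNA came from whole worms of both genotypes at 2 stages. The mutant group carries daf-19 and daf-12 mutations, and the control group carries the daf-12 mutation alone, so every array comes from worms with mutated daf-12. The alleles are not named in the labels. There were 4 mutant and 4 control arrays of first-stage (L1) larvae and 3 mutant and 3 control arrays of adults, which the labels call biological replicates. Per the protocol the adults were collected when 50 hours had passed since L4, although the sample titles call them young.

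Insulin-like peptides are secreted, largely by neurons, and bind the receptor DAF-2, which signals through the lipid kinase AGE-1 and the kinases PDK-1, AKT-1 and AKT-2 to keep the transcription factor DAF-16 out of the nucleus. In parallel, the TGF-beta ligand DAF-7, released by ciliated sensory neurons, restrains the DAF-3 and DAF-5 complex, and both pathways feed the synthesis of a steroid ligand of the nuclear receptor DAF-12 by DAF-9. Low signalling sends larvae into the dauer, a resting stage. DAF-19, an RFX transcription factor, is needed for the cilia through which worms sense dauer cues; daf-19 mutants form dauers constitutively, and loss of daf-12 prevents it. In the daf-12 background the 2 genotypes can therefore be compared as growing larvae and as adults. The comparison asks which genes of these pathways change with daf-19, in larvae and in adults.

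Values are log2 signals as deposited. A difference is said to have passed the test, and a gene to have risen or fallen, when limma's adjusted p was under 0.05 over all 22548 probe sets. The targeted gene was lower in the arrays labelled mutant at both stages. One of the 2 daf-19 probe sets read 6.42 to 6.89 in L1 controls and 5.77 to 6.08 in L1 mutants, a difference of -0.69 (limma adjusted p 0.00281), and 7.24 to 7.42 and 6.65 to 6.76 in adults, a difference of -0.64 (limma adjusted p 0.0163). The other probe set differed by -0.70 at L1 (limma adjusted p 0.0125) and by -0.56 in adults (limma adjusted p 0.105). Of 16 markers of ciliated sensory neurons, 9 fell in L1 mutants and 0 in adult mutants (median differences -0.52 and 0.07), while 0 of 11 pan-neuronal markers passed the test at either stage. Most of the 16 are genes of the cilium, which needs DAF-19, so their level does not count cells. Fewer cells of a type and less RNA per cell cannot be told apart in whole worms. Among markers of other tissues at L1, 1 of 10 intestinal genes (cpr-6) and 1 of 9 sperm genes (spe-4) rose in mutants, with list medians of 0.04 and 0.05. In adults 3 of 10 early embryo genes (pes-10, vet-1 and vet-6) fell, while 4 of the 10 were higher in mutants and the list median was -0.03. None of the 10 epidermal markers passed the test, but all 10 were lower in the mutant mean at both stages, with medians of -0.15 and -0.24. The mean level of the 10 early embryo markers was 7.76 to 7.88 in adult controls and 7.35 to 7.56 in adult mutants. Adult control array 1 stood apart from the other adult controls: its median correlation with its own group was 0.992 against 0.995 and 0.994, and without it the number of genes called between adult genotypes went from 182 to 580. Adult results of the 39 genes that rest on it are therefore given with and without it. The deviations of that array from its group mean went with those of adult mutant array 1 (correlation 0.44). The mutant array was kept when the control array was left out. The difference between the 3' and 5' probe sets of the glyceraldehyde phosphate dehydrogenase control was 3.83 to 4.12 in L1 mutants and 3.16 to 3.83 in L1 controls, and -0.54 to -0.36 over the 6 adult arrays. This 3' excess is a common measure of how far labelled RNA reaches back from the 3' end, and larval differences are given below with it as a covariate where it ended a call.

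Differences between mutant and control larvae were small for most of the pathway genes. Of the 39 genes, 34 differed by less than 0.3 on the log2 scale, and the median difference was -0.04 against 0.01 over all genes. In the main fit, which did not pair arrays by replicate number, 1 gene passed the test (a paired fit is given below). That 1 of 39 stands beside 1.22% of all genes called at L1, 0.386% higher and 0.83% lower in mutants. At an unadjusted p under 0.05 there were 7 genes (17.9%) against 10.5% of all genes, 3 of them higher and 4 lower in mutants. Mutant and control arrays did not overlap for 4 genes (10.3%) against 4.56% of all genes. The genes with small differences include ins-3, ins-31 and ins-37, whose means were below the lower quartile of all probe sets in all 4 groups. Those 3 genes give no measure of change.

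**Figure D1:**
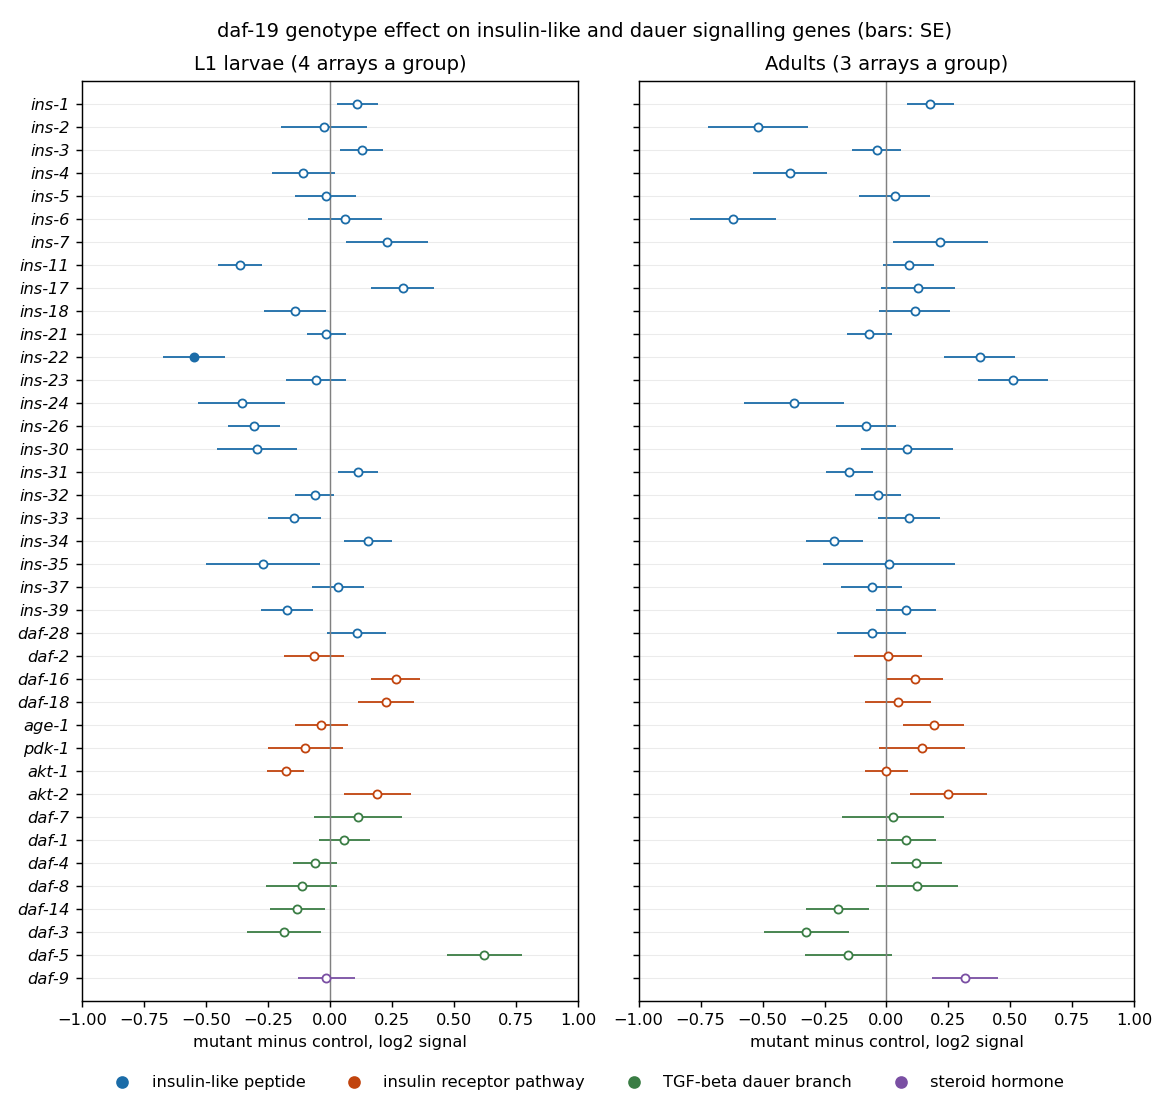
Difference between mutant and control for each of the 39 genes on the log2 scale, in L1 larvae (left, 4 arrays a group) and adults (right, 3 arrays a group). Points are limma estimates of the main fit, without pairs, with the standard error as bars, coloured by pathway. A filled point has an adjusted p under 0.05, which holds for ins-22 at L1 and for no gene in adults.

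The larval change was in ins-22, an insulin-like peptide gene expressed in neurons, whose tagged protein is widely used to follow dense core vesicles. The 4 control larval arrays read 4.63, 4.46, 4.28 and 4.47, and the 4 mutant arrays 3.87, 3.93, 3.90 and 3.94. All 4 mutant arrays lay below all 4 controls and close to each other. The gene fell by 0.55 on the log2 scale (SE 0.12, 95% interval -0.82 to -0.28), a 1.46-fold lower signal, with a limma adjusted p of 0.0492. The mutant values were just above the lower quartile of all probe sets on those arrays, which was 3.71 to 3.75, so little signal was left to fall. The mean level of the 16 ciliated neuron markers, most of them cilium genes, went with it. That level was 5.26 to 5.41 in control larvae and 4.71 to 4.83 in mutants, and its part in the ins-22 result was not tested. The call is at the edge of the threshold: it was lost when any array was left out other than adult control 1 or adult control 3 (limma adjusted p 0.0527 to 0.126), and with the 3' excess as a covariate (-0.52, limma adjusted p 0.313).

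The neighbours of ins-22 on the chromosome did not pass the test in larvae. ins-21, ins-22 and ins-23 lie in a row with 0 protein-coding genes between them in the RefSeq annotation. For ins-21 the L1 control arrays read 4.28, 4.10, 4.12 and 4.30 and the mutant arrays 4.25, 4.08, 4.11 and 4.30, so that the groups overlapped throughout. For ins-23 the difference at L1 was -0.06 (SE 0.12, limma adjusted p 0.968). Its arrays read 3.69 to 3.88 in control larvae and 3.60 to 3.83 in mutants. These lay around the lower quartile of the L1 arrays, 3.71 to 3.76, so a fall in ins-23 could hardly have been measured.

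Among the other insulin-like ligands, ins-11, a peptide known from the intestine in responses to pathogens, had the next smallest p at L1. Its control arrays read 5.10, 5.27, 5.19 and 5.18 and its mutant arrays 4.91, 4.68, 4.72 and 4.97. The groups did not overlap, and the difference was -0.37 (SE 0.09, limma adjusted p 0.074), which missed the threshold. The arrays of ins-26 read 4.08, 3.60, 3.74 and 3.89 in control larvae and 3.36, 3.49, 3.67 and 3.56 in mutants. These groups overlapped, every mutant array was below the lower quartile of its array, and the difference was -0.31 (SE 0.11, limma adjusted p 0.268). ins-26 lies next to ins-30 and ins-24 with 0 coding genes between them, and these differed at L1 by -0.30 (SE 0.16) and -0.36 (SE 0.18), with overlapping arrays. A second ins-24 probe set, which unlike the first is no _s_at set, differed by -0.04 (SE 0.07, limma adjusted p 0.96). None of the 3 neighbours passed the test.

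The best studied ligands had overlapping arrays at L1. DAF-28 is a sensory neuron ligand that favours reproductive growth. Its gene read 3.55, 3.80, 4.21 and 3.85 in control larvae and 3.81, 3.98, 3.95 and 4.10 in mutants, a difference of 0.11 (95% interval -0.15 to 0.36). For ins-6, which promotes growth and exit from dauer, the controls read 4.12, 4.09, 3.76 and 4.06 and the mutants 4.03, 4.49, 3.69 and 4.06, a difference of 0.06 (95% interval -0.26 to 0.38). The arrays of both genes spread more within a genotype than between the genotype means. INS-1 is known as an antagonist of the receptor in several settings. Its gene read 5.10, 5.01, 5.03 and 4.87 in control larvae and 5.10, 5.29, 5.04 and 5.02 in mutants, a difference of 0.11 (95% interval -0.07 to 0.29). For ins-7, a ligand that DAF-16 represses in the intestine, the readings were 3.78, 3.59, 3.64 and 3.51 in controls and 4.14, 3.51, 3.83 and 3.96 in mutants, a difference of 0.23 (95% interval -0.13 to 0.59). These intervals bound the larval changes in signal and do not show that levels were equal. Some larval arrays of daf-28, ins-6 and ins-7 read below the lower quartile of all probe sets, which was 3.71 to 3.76 on the L1 arrays. That limits how large a fall could be measured in these genes.

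None of the 7 insulin receptor pathway genes passed the test at L1, where the differences of their representing probe sets ran from -0.18 to 0.27 with a smallest limma adjusted p of 0.327. The other probe set of akt-1, a kinase gene, differed by more than any of these, by -0.34 (SE 0.09, limma adjusted p 0.098). The gene of the receptor, daf-2, read 3.81, 4.11, 4.02 and 4.05 in control larvae and 3.87, 4.33, 3.84 and 3.69 in mutants. The groups overlapped, with a difference of -0.07 (95% interval -0.32 to 0.19). Among the representing probe sets the smallest p belonged to daf-16, the transcription factor at the end of the pathway. Its arrays read 8.87, 8.51, 8.70 and 8.39 in controls and 8.96, 8.96, 8.83 and 8.78 in mutants, a difference of 0.27 (95% interval 0.05 to 0.48, limma adjusted p 0.327). One control array lay within the mutant range.

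In the TGF-beta pathway, daf-5 had the largest larval difference of the whole set in either direction. It missed the threshold in the main fit, which did not pair arrays. DAF-5 is the Sno/Ski partner of the DAF-3 Smad, and both are antagonised by DAF-7. Its control arrays read 11, 11.50, 11.17 and 10.95 and its mutant arrays 11.55, 12.01, 11.79 and 11.76. Every mutant array lay above every control, by 0.62 in the mean (SE 0.15, limma adjusted p 0.0714). Its other 2 probe sets differed by 0.46 (limma adjusted p 0.172) and 0.45 (limma adjusted p 0.308). The 3 probe sets thus gave the same direction, and the one with the largest difference and 1 other are of the _x_at kind, which can take signal from other transcripts. The other 6 genes of the pathway had smaller differences, with -0.19 the lowest, for daf-3. For the ligand gene daf-7 the controls read 7.25, 7.53, 7.41 and 7.17 and the mutants 6.98, 7.79, 7.77 and 7.27, a difference of 0.11 (95% interval -0.27 to 0.50). For daf-9, which encodes the cytochrome P450 of the last step of the steroid hormone synthesis, the controls read 5.05, 5.23, 5.25 and 5.26 and the mutants 5.03, 5.38, 5.33 and 4.99. These overlapped, and the L1 difference was -0.02 (95% interval -0.26 to 0.23).

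Same-numbered mutant and control larval arrays deviated together, so the larvae were also compared within pairs. With the replicate number as a block at L1, 2 of the 39 genes passed the test, and over all genes the count went from 208 to 498. ins-22 remained lower (limma adjusted p 0.0487) and daf-5 was called higher (limma adjusted p 0.0233). Without adult control array 1 the same 2 genes passed, beside 1.26% of all genes.

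In adults 0 of the 39 genes passed limma's test between genotypes, beside 1.06% of all genes (0.368% higher and 0.695% lower). At an unadjusted p under 0.05 there were 6 genes (15.4%) against 8.09% of all genes, 3 higher and 3 lower. The groups did not overlap for 3 genes (7.69%), a smaller share than the 13.7% of all genes. The differences of 31 genes, among them the dim genes ins-3, ins-31 and ins-37, were under 0.3. The median difference of the 39 genes was 0.03, as over all genes. Without adult control array 1, 3 genes passed the test, beside 3.39% of all genes, and those 3 (ins-2, ins-4 and ins-6) belong to the row of neighbouring genes ins-2, ins-3, ins-4, ins-5 and ins-6, between which the annotation has 0 other coding genes.

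The gene of that row with the clearest gap was ins-6. Its adult control arrays read 5.08, 5.33 and 5.59 and its mutant arrays 4.77, 4.69 and 4.68. All 3 mutant arrays lay below all 3 controls, by 0.62 in the mean (a difference of -0.62, SE 0.17, limma adjusted p 0.148), and by -0.75 without adult control array 1 (limma adjusted p 0.0399). For ins-4 the controls read 5.48, 6.02 and 6.23 and the mutants 5.53, 5.51 and 5.52. Control array 1 was at the level of the mutants and the other 2 controls were above them, so that the difference went from -0.39 (SE 0.15, limma adjusted p 0.427) to -0.61 (limma adjusted p 0.00611) without it. Leaving out adult control array 3 in its place moved the other way, to -0.23 for ins-4 (limma adjusted p 1.0) and -0.49 for ins-6 (limma adjusted p 0.634). ins-2, named here after its values were seen, had the same form: its controls read 4.41, 5.36 and 5.47 and its mutants 4.60, 4.68 and 4.41. The difference was -0.52 (SE 0.20, limma adjusted p 0.453) with control array 1 and -0.85 (SE 0.11, limma adjusted p 0.000418) without it. The lower quartile of all probe sets was 4.52 to 4.60 on the adult mutant arrays. The mutant readings of ins-6 were just above it and those of ins-2 around it, so little signal was left to fall. In control array 1, ins-2 was below that array's lower quartile of 4.54. The row was not uniform. ins-5 read 6.59, 6.50 and 6.75 in controls and 6.77, 6.67 and 6.50 in mutants, with overlap whether or not array 1 was kept. ins-3 was below the lower quartile on every array of all 4 groups and gives no measure of change. At L1, ins-2, ins-4 and ins-5 differed between genotypes by -0.03, -0.11 and -0.02. The larval readings of ins-2 and ins-4 lay around or just above the lower quartile, which limits how large a fall can be measured there. The 3 early embryo genes that fell belong to the same adult mutant arrays, and their part in the adult differences of this row was not tested.

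**Figure D2:**
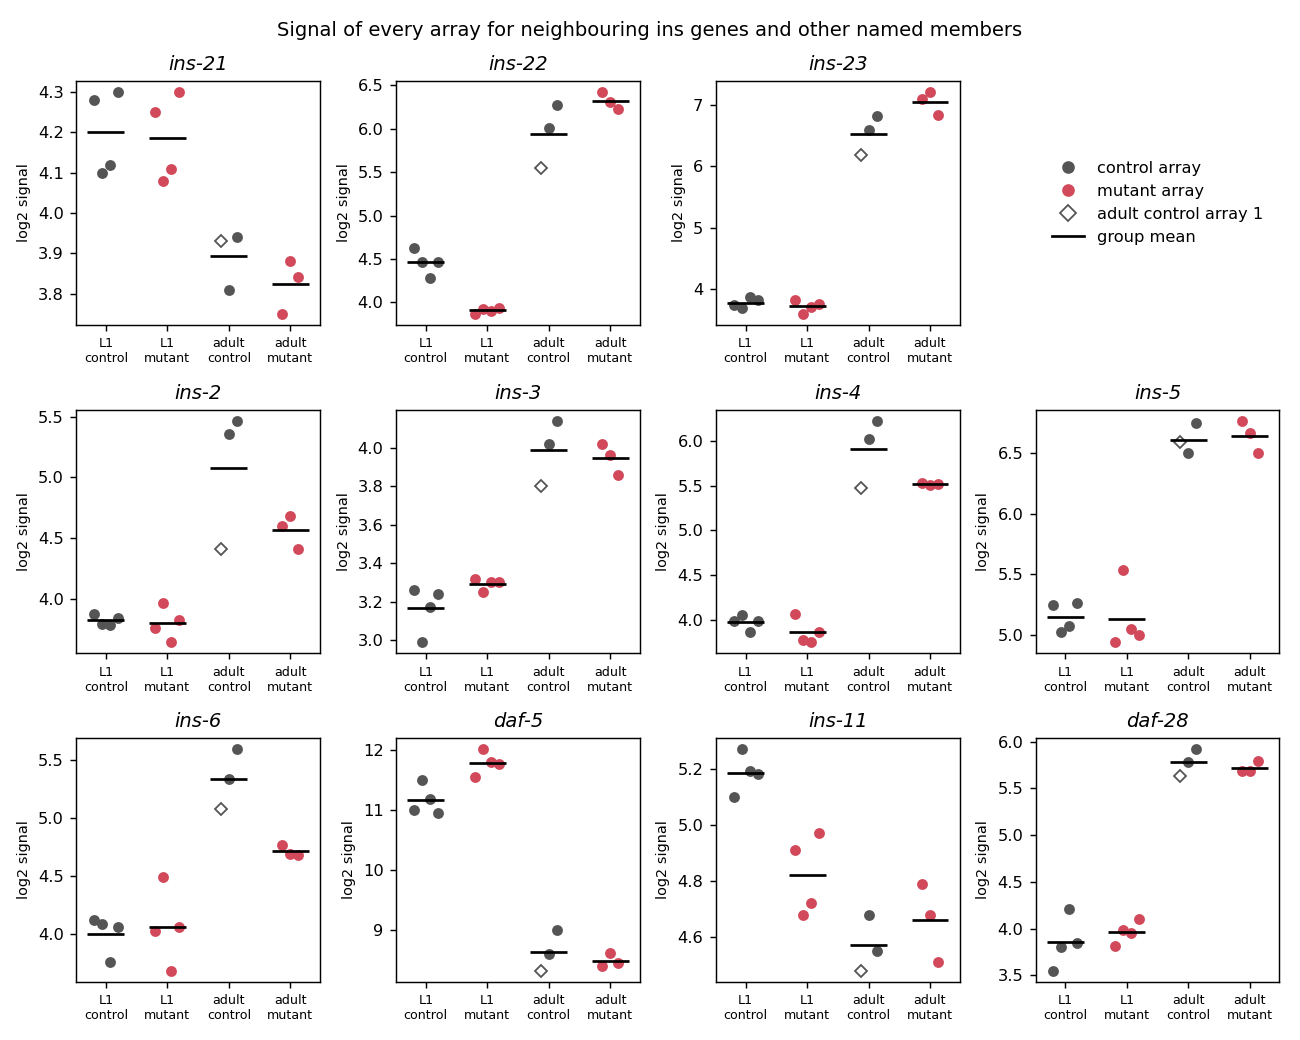
Log2 signal of every array for 2 rows of neighbouring ins genes (ins-21 to ins-23 and ins-2 to ins-6) and for daf-5, ins-11 and daf-28, each panel with its own axis. Grey points are control arrays, red points mutant arrays, the open diamond is adult control array 1 and lines are group means. ins-22 separates the genotypes at L1 alone, and in ins-2 and ins-4 the open diamond sits with the adult mutants, apart from the other 2 controls.

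In the other row of neighbours the adult means of ins-22 and ins-23 were higher in mutants. The arrays of ins-23 read 6.19, 6.59 and 6.82 in controls and 7.09, 7.21 and 6.83 in mutants. The lowest mutant array was just above the highest control, and the difference was 0.51 (SE 0.14, limma adjusted p 0.142), or 0.34 (limma adjusted p 0.227) without adult control array 1. For ins-22 the controls read 5.55, 6.01 and 6.27 and the mutants 6.42, 6.31 and 6.23, with overlap. That adult difference was 0.38 (SE 0.14, limma adjusted p 0.426), and 0.18 (limma adjusted p 0.657) without control array 1.

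At their representing probe sets, the remaining ligands and the pathway genes had overlapping adult arrays, with the exception of ins-1. Its controls read 5.03, 5.04 and 5.10 and its mutants 5.23, 5.35 and 5.12, a difference of 0.18 (95% interval -0.03 to 0.38, limma adjusted p 0.795). daf-28 read 5.63, 5.78 and 5.92 in controls and 5.68, 5.68 and 5.79 in mutants, a difference of -0.06 (95% interval -0.36 to 0.24). The arrays of ins-7 read 6.53, 5.86 and 5.83 in controls and 6.13, 6.16 and 6.58 in mutants, a difference of 0.22 (95% interval -0.19 to 0.63). Both genes had overlapping genotypes, and without adult control array 1 the differences were -0.13 (limma adjusted p 0.89) and 0.45 (limma adjusted p 0.274). The probe set that stands for the receptor gene daf-2 was below the lower quartile on every adult array, as were 2 of its other 3. The remaining daf-2 probe set was above it, with overlapping genotypes and a difference of 0.07 (limma adjusted p 0.999). By their representing probe sets, the genes downstream of the receptor had differences from 0.00 for akt-1 to 0.25 for akt-2, with a smallest limma adjusted p of 0.91. Without adult control array 1, akt-2 differed by 0.07, age-1 by 0.33 (limma adjusted p 0.21) and pdk-1 by 0.31 (limma adjusted p 0.557), so the order of these genes rests on that array. daf-16 read 8.56, 8.51 and 8.40 in adult controls and 8.68, 8.60 and 8.53 in mutants, a difference of 0.11 (95% interval -0.13 to 0.36).

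For daf-7 the adult controls read 6.43, 6.96 and 7.10 and the mutants 6.85, 6.96 and 6.76, a difference of 0.03 (95% interval -0.42 to 0.47). The mutant arrays lay within the control range, whose lower end is adult control array 1, and without that array the difference was -0.17 (limma adjusted p 0.898). Over the 7 TGF-beta genes the adult differences of the representing probe sets ran from -0.32 for daf-3 to 0.12, with a smallest limma adjusted p of 0.78. Without adult control array 1, daf-3 differed by -0.48 (limma adjusted p 0.216) and daf-5 by -0.31 (limma adjusted p 0.585) in place of -0.15. The other daf-3 probe set read 7.38, 7.58 and 7.70 in controls and 7.30, 7.28 and 7.35 in mutants. Those groups did not overlap, and the difference was -0.24 (limma adjusted p 0.722). The steroid hormone gene daf-9 read 6.02, 5.92 and 5.67 in controls and 6.27, 6.32 and 5.97 in mutants. The groups overlapped and the difference was 0.32 (95% interval 0.03 to 0.60, limma adjusted p 0.531).

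The difference between the adult and the larval genotype effects was tested as an interaction, and ins-22 passed it. Its genotype effect was 0.93 higher in adults than in larvae (SE 0.19, 95% interval 0.52 to 1.33, limma adjusted p 0.0336), going from -0.55 to 0.38. Without adult control array 1 the value was 0.73 (limma adjusted p 0.0138). This 1 gene of 39 stands beside 0.976% of all genes called in the interaction, 0.526% higher and 0.45% lower. With the 3' excess as a covariate the value was 0.89 and the limma adjusted p 0.182. Leaving out each of the 14 arrays in turn kept the call without L1 mutant 1, L1 control 3, adult control 1 or adult control 3, and ended it for the other 10 arrays (limma adjusted p up to 0.105). The next genes by p were daf-5, with -0.78 (limma adjusted p 0.183), ins-11, with 0.46 (limma adjusted p 0.187), and ins-23, with 0.57 (limma adjusted p 0.257). Without adult control array 1, daf-5 and ins-2 passed the interaction test as well, beside 2.48% of all genes. Over the 39 genes, 17 were counted with the same sign of difference at both stages. That count includes akt-1, which was -0.18 at L1 and 0.00 in adults and so had no sign there.

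Genes around these pathways were counted from lists of known members. In 24 other genes of the insulin receptor pathway, 14 of peptide processing and dense core vesicle release, 12 of the steroid hormone branch, 8 of ascaroside pheromone synthesis, 15 of pheromone reception and cGMP signalling and 12 of the Sma/Mab TGF-beta pathway, limma called 0 genes between genotypes at either stage. Over all genes 1.22% were called at L1 and 1.06% in adults, so 0 calls in lists this short say little. At an unadjusted p under 0.05 the same lists held 6, 1, 2, 0, 0 and 3 genes at L1 and 3, 1, 1, 1, 1 and 1 in adults. The shares of all genes at that level were 10.5% and 8.09%. The larval medians of these lists ranged from -0.06 to 0.10, and the adult medians from -0.07 to 0.02. Among 7 further genes of the TGF-beta dauer pathway, 1 rose in adult mutants and 0 changed at L1. That gene was hen-1, which encodes a secreted protein of neurons with an LDL receptor motif. Its adult controls read 6.27, 6.02 and 5.77 and its mutants 6.90, 6.90 and 7.12, a difference of 0.95 (SE 0.13, limma adjusted p 0.0013). The genotypes did not overlap in adults, and the interaction passed the test as well (limma adjusted p 0.0208).

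Of 23 measured genes known as targets of DAF-16, 0 changed at L1 and 2 fell in adult mutants, where 1.06% of all genes were called, and the median difference over the list was 0.03 at L1 and 0.11 in adults. These were dod-24 and dod-22, CUB-like domain genes of the intestine that are known to be lowered when DAF-16 is active and are also used as reporters of the response to pathogens. dod-24 read 11.18, 10.35 and 9.59 in adult controls and 7.48, 6.43 and 6.35 in mutants, a difference of -3.62 (SE 0.43, limma adjusted p 0.000547). dod-22 read 6.95, 6.83 and 6.53 in controls and 5.40, 5.32 and 4.99 in mutants, a difference of -1.53 (limma adjusted p 0.000145). Both genes separated the adult genotypes fully, and both interactions passed the test. In larvae dod-24 read 6.69, 7.05, 6.98 and 7.58 in controls and 7.25, 8.59, 8.71 and 8.54 in mutants, with overlap (limma adjusted p 0.196). At an unadjusted p under 0.05 the list had 6 genes higher and 3 lower in adults, 9 of 23 beside 8.09% of all genes, and 2 higher and 2 lower at L1 beside 10.5%. The remaining 21 targets passed the test in neither stage, and the list is of DAF-16 targets in other studies, not of DAF-16 activity here. It was not split by whether DAF-16 raises or lowers a gene, so its median and counts give no direction of DAF-16 activity. fat-5, a fatty acid desaturase gene, was called in the interaction alone (1.42, limma adjusted p 0.0296), with -0.75 at L1 and 0.67 in adults.

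Between larvae and adults nearly all of these genes differed, and so did nearly all genes. In controls 22 of the 39 were higher and 13 lower in adults, beside 74.0% of all genes higher and 15.8% lower, 89.8% together. In mutants the counts were 23 and 13, beside 74.3% and 15.4% of all genes, 89.7% together. The stages did not overlap for 22 higher and 13 lower genes in either genotype, beside 88.4% of all genes in controls and 87.9% in mutants. The deposited values of the 2 stages appear to have been scaled separately: array medians were 4.72 to 4.76 at L1 and 5.91 to 6.02 in adults, and the median of all genes moved by 0.85. Under a quantile normalization over all 14 arrays the median of all genes moved by -0.06 and the count became 10 higher and 21 lower, beside 34.5% and 40.3% of all genes. With each array centred on its median, all genes moved by -0.38 and the count became 10 higher and 24 lower, beside 31.7% and 54.4% of all genes. A direction between stages is given below for genes that passed the test the same way under all 3 scalings. In controls these were 9 genes higher (28.3% of all genes were) and 13 lower (15.8% of all genes were), and 17 depended on the scaling. In mutants they were 10 higher and 13 lower, beside 28.3% and 15.4% of all genes. The condition sifts the rises alone, since both rescalings moved the stage differences of these genes down. Every gene called lower as deposited was also lower under all 3 scalings, so the falls rest on the deposited scale and were not checked by the other 2.

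**Figure D3:**
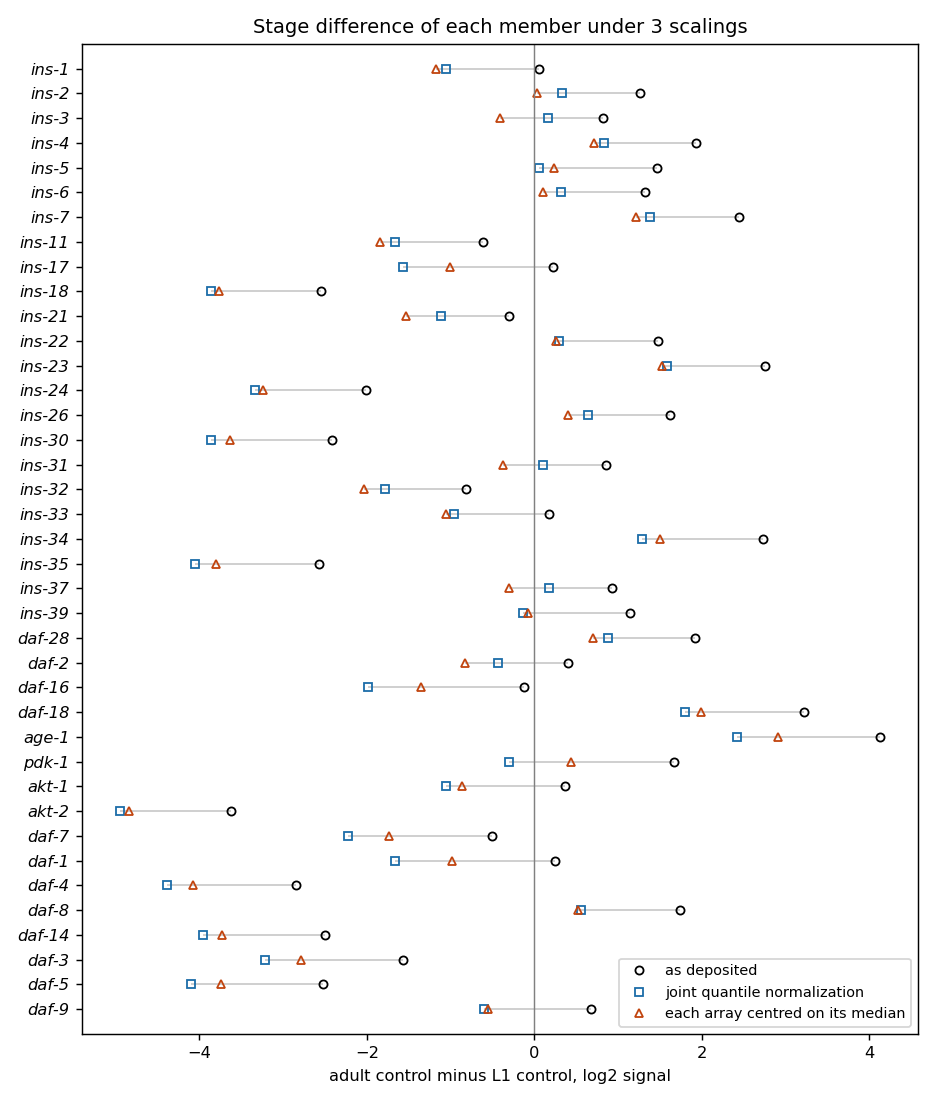
Adult control minus L1 control for each of the 39 genes, in log2 signal, as deposited (black circles), after quantile normalization of all arrays together (blue squares) and with each array centred on its median (orange triangles). The 2 rescaled values lie to the left of the deposited one for every gene, and genes such as age-1 and akt-2 keep their side of 0 under all 3 while daf-2 and daf-9 change sides.

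Of the 24 insulin-like ligands, 6 were higher in adult controls under all 3 scalings, 7 were lower and 11 depended on the scaling. The higher ones were ins-4, ins-7, ins-23, ins-26, ins-34 and daf-28. The arrays of ins-23 in L1 controls lay around a mean of 3.78 and in adult controls around 6.53, a deposited difference of 2.75 (SE 0.13). ins-34 read 4.66, 4.68, 4.70 and 4.45 at L1 and 7.33, 7.30 and 7.42 in adults, a deposited difference of 2.73 (SE 0.11). ins-7 had a deposited difference of 2.44 (SE 0.18). These 3 genes lay at mean percentiles of 21.5 to 47.8 of all probe sets in L1 controls, and no larval array reached an adult one.

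The lower ligands were ins-11, ins-18, ins-21, ins-24, ins-30, ins-32 and ins-35. ins-18, which encodes a ligand known to antagonise the receptor, read 7.16, 7.07, 6.83 and 7.27 in L1 controls and 4.30, 4.63 and 4.69 in adults, a deposited difference of -2.54 (SE 0.14). ins-35 read 8.54, 9.19, 9.57 and 9.89 at L1 and 6.89, 6.64 and 6.64 in adults, a deposited difference of -2.57 (SE 0.25). Its larval arrays had the widest spread of any of the 39 genes in L1 controls (SD 0.58), and none of them reached the adult level. Neighbours did not go the same way: ins-26 was higher in adults by 1.63 while ins-30 and ins-24 beside it were lower, by -2.41 and -2.01 as deposited. ins-21 was lower by -0.31 beside ins-22 and ins-23, which were higher by 1.48 and 2.75 as deposited, although ins-22 did not pass under all 3 scalings.

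In the insulin receptor pathway, the kinase gene age-1 and the phosphatase gene daf-18, whose products act against each other on the same lipid, were both higher in adults under all 3 scalings. age-1 read 5.01, 4.96, 4.89 and 5.16 in L1 controls and 9.41, 8.95 and 9.06 in adult controls, a deposited difference of 4.14 (SE 0.11). daf-18 read 8.42, 8.59, 8.47 and 8.08 at L1 and 11.65, 11.63 and 11.54 in adults, a deposited difference of 3.22 (SE 0.12). Both had the same direction in a second probe set, which gave 3.88 for age-1 and 7.60 for daf-18, far from the 3.22 of the first. They were the only 2 of the 13 genes with several probe sets for which every probe set was called higher under all 3 scalings. The kinase gene akt-2 was lower: it read 9.66, 10.05, 9.88 and 9.76 at L1 and 5.85, 6.54 and 6.27 in adults, a deposited difference of -3.62 (SE 0.15). The mutants gave 4.36 for age-1, 3.04 for daf-18 and -3.56 for akt-2. In the TGF-beta pathway daf-8 was higher, 5 genes (daf-7, daf-4, daf-14, daf-3 and daf-5) were lower, and daf-1 depended on the scaling. daf-4, the type II receptor gene, read 10.94, 10.97, 11.04 and 10.76 at L1 and 8.22, 7.98 and 8.04 in adults, a deposited difference of -2.85 (SE 0.10). daf-5 had a deposited difference of -2.52 (SE 0.16). For the ligand gene daf-7 the difference was smaller, -0.51 (SE 0.19, limma adjusted p 0.0219) as deposited and -0.31 (limma adjusted p 0.146) without adult control array 1.

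Several of these falls belong to 1 probe set of the gene and not to another. In the deposited values 6 of the 13 genes with several probe sets had probe sets called in opposite directions between stages, namely ins-24, akt-2, daf-4, daf-14, daf-3 and daf-5. For akt-2 they gave -3.62 and 0.83, for daf-4 -2.85 and 0.76, for daf-14 -2.50 and 1.68, and for daf-5 -2.52, -2.07 and 2.28. Under both other scalings all probe sets of ins-24, akt-2, daf-4 and daf-3 were lower, while those of daf-5 stayed opposed. Of the 13 genes, 5 had opposed calls with joint quantile normalization and 6 with each array centred on its median. akt-1, daf-1 and daf-16 were among them under both, although their probe sets were not called in opposite directions as deposited. With centring, daf-14 gave -3.73 and 0.45. In the median over the 13 genes the probe sets of a gene were 2.95 apart in the stage difference, against 0.17 in the larval and 0.08 in the adult genotype difference. The larval genotype differences were themselves small, and probe sets of a gene could disagree in them: those of daf-16 ran from -0.03 to 0.33. The stage groups also differed in the 3' excess given above, and 12 of 12 germline markers were higher in adult controls, with a median of 6.34. The 3' excess and the tissue makeup went with stage on every array, and their parts cannot be told apart from that of stage.

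**Figure D4:**
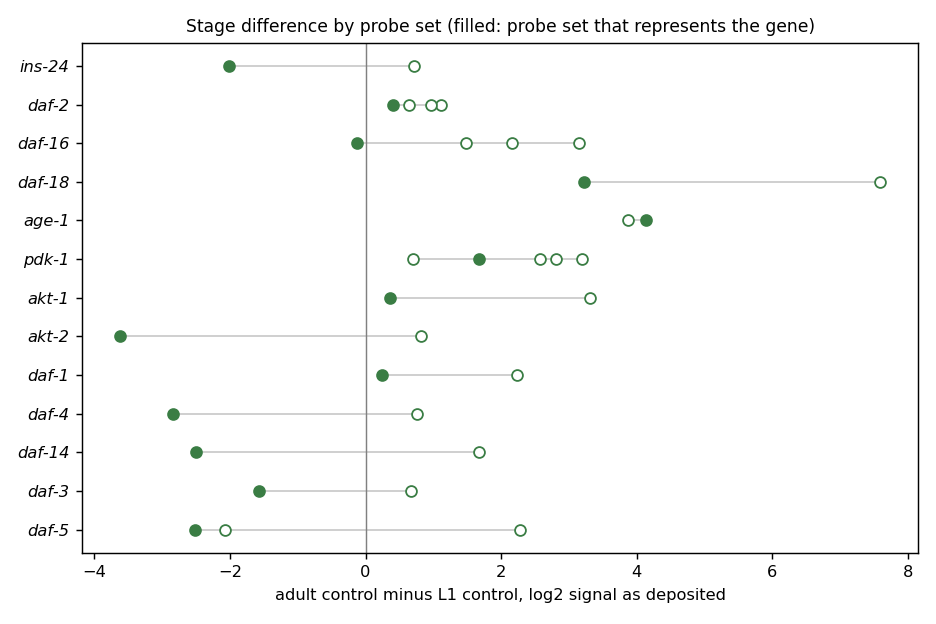
Adult control minus L1 control in deposited log2 signal for every probe set of the 13 genes that have more than 1. A filled point is the probe set that stands for the gene and lines join the probe sets of a gene, which lie on both sides of 0 for 7 of the genes.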

How the data were processed

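The authors deposited 1 table of log2 signals for 22625 probe sets on 14 Affymetrix arrays of whole worms, made from 6 ug of total RNA per array per the labels' protocols. How the authors corrected, summarised and normalized the signals, with which software and build, is not given in the sources used here, and the log2 unit was read from the values. Probe sets were named through the platform's gene annotation, which lists 20766 with 1 gene, 887 with several and 895 not at all. Genes of probe sets with several names were not used.

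After 77 control probe sets were left out, the other 22548 went into 1 fit of 4 group means (limma 3.58.1 under R 4.3.3) with lmFit and eBayes without trend, 10 residual and 4.18 prior degrees of freedom, and Benjamini-Hochberg adjustment in each contrast at 0.05. The fit was checked on simulated data. The median SE was 0.107 at L1 and 0.123 in adults, set by the number of arrays. No 2 arrays were identical. Percentages of all genes use 17118 genes at 1 probe set each.

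The members and the gene and marker lists were chosen with earlier results of these data known. Values per array are given for members past the threshold, for the 4 with the smallest p in each genotype contrast, for the 5 largest rises and falls between stages and for 8 well known genes. Same-numbered mutant and control arrays deviated together at L1 (correlations 0.42, 0.32, 0.19 and 0.24, each array closest to its own number). They did not do so throughout in adults (0.44, 0.11 and 0.04). The numbers were therefore taken as pairs at L1 in an alternative to the main fit. The alternatives were replicate blocks, other normalizations, a filter on dim probe sets, trended variance, array weights, smaller fits, a 3' excess covariate, other probe sets and leaving out each array. No sequences are shown, since the tables used here hold none. The planned motif and protein comparisons were not made.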

Additional observations from a re-analysis of the deposited data

Results flagged for a closer look

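The genotype effect of ins-22 differed between the stages by the interaction test: it was 0.93 higher in adults than in larvae (SE 0.19, limma adjusted p 0.0336). Among 78 groups of 4 larval arrays, 1 array lay far from the other 3 in 4 cases by Dixon's test, which chance alone gives in about 1 in 20 groups. In L1 controls these were the lowest arrays of ins-6, at 3.76 in log2 signal, of ins-24, at 6.53, of ins-34, at 4.45, and of daf-9, at 5.05.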

How the results depend on the processing

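The count of genes called at L1, 1 as reported, was 2 with a replicate block at L1 only and 3 with joint quantile normalization (ins-22, ins-11 and daf-5). That normalization called 248 genes over the whole array at L1. The L1 count of the 39 genes was 0 with the 3' excess covariate and 0 to 2 with arrays left out. With a replicate block over both stages it was 1, but that gene was daf-5 (limma adjusted p 0.0162), and ins-22 missed the threshold (0.0592). The adult count, 0 as reported, was 1 with either replicate block, where ins-6 passed (limma adjusted p 0.0431 with the block over both stages), 6 with array weights (ins-2, ins-4, ins-6, ins-23, ins-24 and age-1) and 0 to 3 with arrays left out. The interaction count, 1 as reported, was 2 with the replicate block, 2 with array weights, 0 with the covariate and 0 to 3 with arrays left out. The replicate numbers do not pair the adult arrays by the check used. Genes called over the whole array moved too: at L1 from 208 to 423 with the block, 498 with the L1 block, 81 in a fit of the larvae alone and 79 with the covariate, and without L1 control 4 to 125; in adults from 182 to 328 with the block, 1548 with array weights, 116 in a fit of the adults alone, 580 without adult control 1 and 81 to 113 without any other adult array; in the interaction from 167 to 339, 717 with weights, 273 with the L1 block, 76 with the covariate, 424 without adult control 1 and 71 to 103 without any other adult array. daf-5 at L1 also passed with joint quantile normalization (0.0447) and without L1 mutant 1, L1 control 2, adult control 1 or adult control 3 (limma adjusted p 0.0344 to 0.0469). Between stages, daf-2 went to -0.43 (joint quantile) and -0.82 (median centred) in controls and to -0.37 and -0.73 in mutants. daf-9 went to -0.60 and -0.55 in controls and to -0.31 and -0.20 in mutants, and ins-6 in mutants to -0.27 and -0.56. The directions of these genes thus depended on the scaling. With plain probe sets only, daf-16 in mutants became 1.39 and daf-5 became 2.28 in controls and 1.68 in mutants, since another probe set stands for the gene. Counts between stages stayed within 31 to 36 in controls and 30 to 37 in mutants under every alternative run. A fit of single stages gives no interaction, so that alternative has no value there. Signals near the lower quartile limit how large a fall can be measured. In larvae this holds for ins-2, ins-4, ins-6, ins-7, ins-22, ins-23, ins-26 and daf-28, among others. In adult mutants it holds for ins-2 and ins-6, among others.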
